A study of Rattus norvegicus with 8 samples.

Results

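The genes described are 8 members of the cytokine and NF-kB signalling system in rat soleus, a hindlimb muscle of mostly slow fibres that bears weight in standing: the secreted ligands Ccl2, Il6, Il1b and Il15, the interleukin 6 receptor chain Il6r, the transcription factor Stat3, the NF-kB subunit gene Nfkb1 and the NF-kB inhibitor gene Nfkbia. Every probe set whose only platform gene symbol was one of these names was taken, which gave 16 of the 8740 probe sets on the array. The 8 genes stand among 4736 single-named genes. All groups were soleus RNA of female rats on one-colour Affymetrix arrays, and each array held a pool from 8 to 10 rats. Walked rats (2 pools) had been kept off their hindlimbs for 12 h and then walked on a treadmill for 2 h in total over 4 h, with 30 min bouts of walking alternating with 30 min of cage activity. Unloaded rats (3 pools) had the same 12 h without hindlimb standing and no walking. Control rats (3 pools) moved normally in their cages for 12 h. The labels name no group with the 4 h period after unloading but without walking. Walking, renewed cage activity and the time passed since unloading therefore cannot be told apart in either comparison of walked rats. Neither strain nor age is given in the labels. With pooled RNA, p-values reflect how pools vary and not how rats vary.

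In this system, ligands such as interleukin 1 beta bind surface receptors and activate a kinase that marks the inhibitor IkB-alpha, the product of Nfkbia, for destruction. NF-kB dimers, which include the p50 protein made from Nfkb1, then enter the nucleus and switch on cytokine, chemokine and feedback genes, Nfkbia among them. Interleukin 6 acts through the receptor made from Il6r and the shared signalling chain Il6st, and activates STAT3 through Janus kinases. Skeletal muscle is known to release interleukin 6 and interleukin 15 and is itself a target of both.

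RefSeq promoter windows, from 250 bases before to 50 bases after the annotated gene start, were matched for 7 of the 8 genes. A set of 5 short motifs was searched on both strands: the NF-kB decamer known as the kappaB consensus, the STAT motif TTCNNNGAA, the AP-1 motif TGANTCA, the cAMP-response half-site TGACG and the TATA box TATAAA. Of the 7 windows 3, those of Il6, Nfkb1 and Nfkbia, held 1 kappaB match each, and they are printed here because they carry that match. Capitals mark every motif match:
Il6 (chr4:5894526-5894825, minus strand of GRCr8): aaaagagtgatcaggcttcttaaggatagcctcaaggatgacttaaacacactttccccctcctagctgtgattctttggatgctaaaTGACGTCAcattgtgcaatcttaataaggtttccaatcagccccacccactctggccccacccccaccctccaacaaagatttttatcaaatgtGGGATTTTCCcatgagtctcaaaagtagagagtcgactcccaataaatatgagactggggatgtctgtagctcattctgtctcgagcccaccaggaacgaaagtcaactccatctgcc
Nfkb1 (chr2:226805413-226805712, minus strand of GRCr8): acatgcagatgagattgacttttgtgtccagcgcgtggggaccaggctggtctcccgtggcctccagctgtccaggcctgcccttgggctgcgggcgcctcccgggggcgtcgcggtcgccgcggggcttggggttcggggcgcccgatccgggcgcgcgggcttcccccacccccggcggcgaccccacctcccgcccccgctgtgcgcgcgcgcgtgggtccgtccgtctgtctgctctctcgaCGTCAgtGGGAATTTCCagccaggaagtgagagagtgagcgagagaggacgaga
Nfkbia (chr6:78597023-78597322, minus strand of GRCr8): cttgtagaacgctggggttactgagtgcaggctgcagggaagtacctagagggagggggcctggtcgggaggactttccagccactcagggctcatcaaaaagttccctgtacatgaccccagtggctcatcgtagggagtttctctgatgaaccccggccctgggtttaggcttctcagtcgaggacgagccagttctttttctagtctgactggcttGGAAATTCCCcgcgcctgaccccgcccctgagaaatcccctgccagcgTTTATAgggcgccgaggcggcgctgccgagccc

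The kappaB match began 68 bases before the gene start in Il6, 31 bases before it in Nfkbia and at base 4 after it in Nfkb1. The first capital run in the Il6 window is a pair of overlapping TGACG half-sites, 1 on each strand, at 162 and 159 bases before the start. The short capital run before the kappaB match of Nfkb1 is another such half-site, and the run after that of Nfkbia is a TATA match on the reverse strand. Over all 33469 promoter windows of the table, 7.51% held the kappaB consensus, 8.87% the STAT motif, 7.33% the AP-1 motif, 21.2% the TGACG half-site and 14.2% the TATA motif. Il6r held 1 TGACG match and Il15 held 1 AP-1 match. A TATA match stood in the Il1b window, and Stat3 held 0 matches of any of the 5 motifs. GC content was 71.3% in the window of Nfkb1, 68.7% in Il6r, 62.3% in Stat3 and 59.7% in Nfkbia. It was 49.3% in Il15, 46% in Il6 and 45.3% in Il1b, against a median of 51.7% over the table. These matches describe letters in a window and do not show binding.

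**Figure D1:**
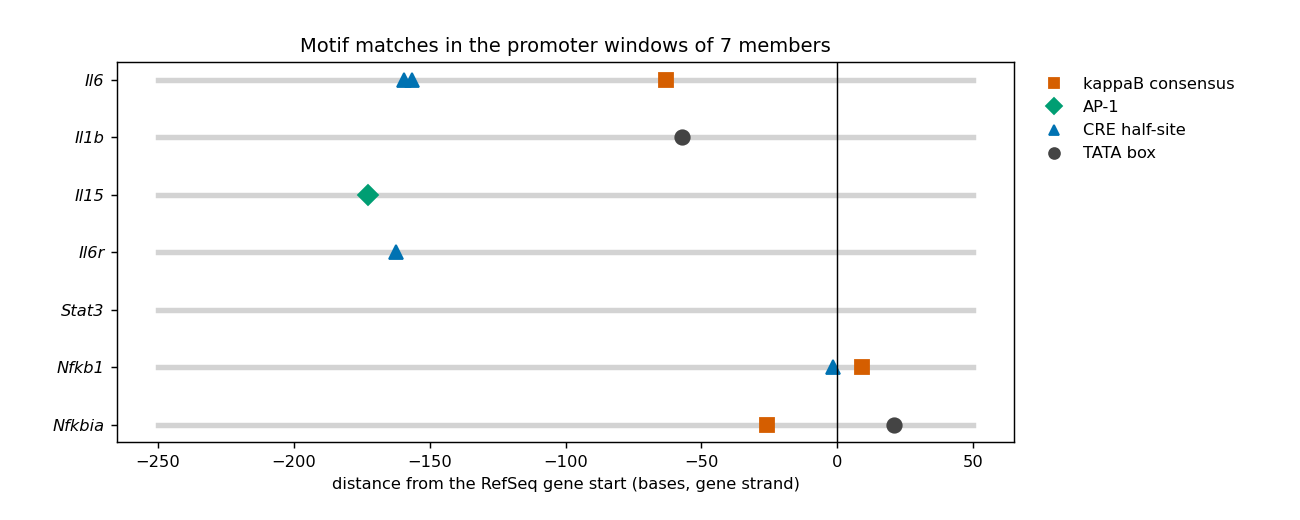
Positions of motif matches in the promoter windows of 7 of the genes; the horizontal axis is the distance in bases from the RefSeq gene start along the gene strand, and each symbol stands at the middle of a match. The kappaB consensus is present once each in Il6, Nfkb1 and Nfkbia.

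Signals are the deposited MAS5 values on a linear scale. Of the 16 probe sets, 11 passed the filter on mean signal (25.8) and were tested, covering 7 of the 8 genes. The other 5, both of Il6, 2 of 3 for Il1b and 1 of 2 for Stat3, were too dim to be tested. A probe set is called where limma's adjusted p was under 0.05 over all 5244 tested probe sets. Unloading against control called 3 of the 11 (27.3%; 2 higher, 1 lower), where 7.30% of all tested probe sets were called (3.99% higher, 3.32% lower). Walking against unloading called 1 (9.09%; higher), against 4.20% of all (2.73% higher, 1.47% lower). Walked against control called 2 (18.2%; both higher), against 9.08% of all (4.46% higher, 4.61% lower). The groups did not overlap for 4 of the 11 when unloaded pools were set against control pools (26.4% of all tested), for 4 between walked and unloaded pools (35.3%) and for 6 between walked and control pools (43.0%). The median log2 fold change of the 11 was -0.05, 0.20 and 0.35 in these 3 comparisons, beside -0.08, -0.05 and -0.11 over everything tested. Probe sets of 1 gene share their transcript, so these counts are not of independent items, and the genes were chosen with earlier results known.

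**Figure D2:**
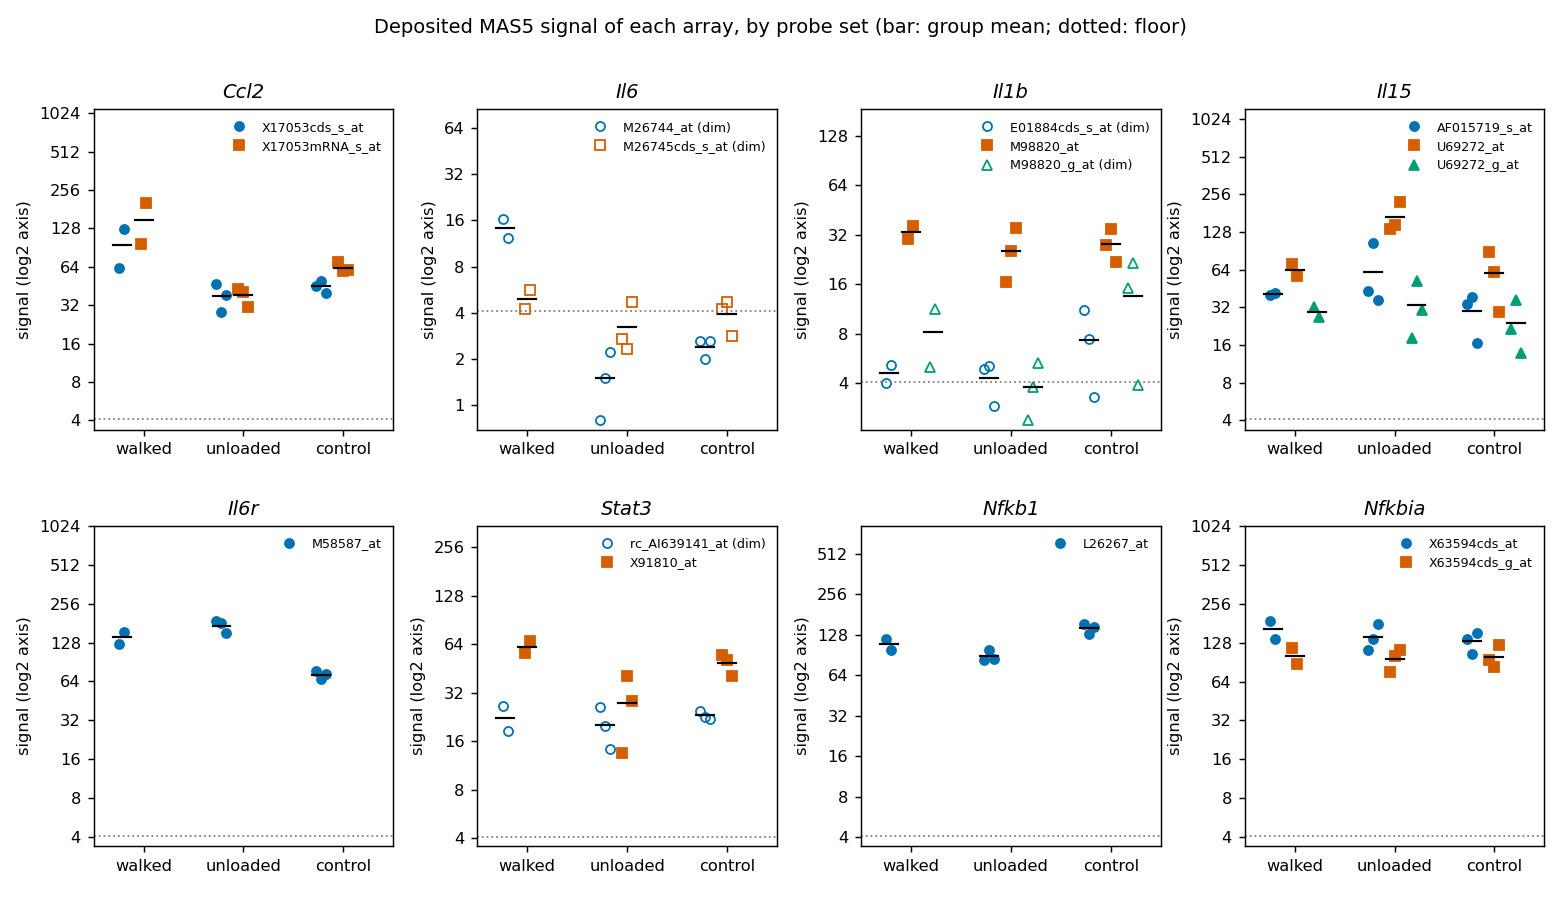
Deposited MAS5 signal (log2 axis) of each array for the 16 probe sets, by gene and group; points are arrays, short bars are group means, open symbols are probe sets too dim to be tested and the dotted line is the floor of 4.10. Il6r lies apart in unloaded and control arrays, and 1 probe set of Il6 is above the floor in walked arrays alone.

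Ccl2, the chemokine that draws monocytes into tissue, was called higher after walking on 1 of its 2 probe sets. Its probe set X17053mRNA_s_at had signals of 96.6 and 202 in the walked pools, against 43.0, 40.7 and 30.8 in the unloaded pools and 69.5, 58.9 and 60.5 in the control pools. Both walked pools lay above all other pools, the unloaded pools lay below all control pools, and the 2 walked pools lay far apart. The means were 149 ± 74.5 (SD, n = 2) in walked, 38.2 ± 6.48 (n = 3) in unloaded and 63.0 ± 5.71 (n = 3) in control soleus. Walked against unloaded gave a log2 fold change of 1.89 ± 0.31 (SE; limma adjusted p = 0.00415), a 3.70-fold difference. Without walked pool 2 it was 1.36 (adjusted p = 0.0728), and without walked pool 1 it was 2.42. Walked against control gave 1.16 ± 0.31 (limma adjusted p = 0.0409). That call was kept without walked pool 1 or unloaded pool 3 and lost in the other 6 refits that left out 1 array. It was also lost with no filter (adjusted p = 0.133), without a trend (0.0786) and in the fit of those 2 groups (0.0558). The estimate was 0.62 without walked pool 2 (adjusted p = 0.368) and 1.69 without walked pool 1. Unloaded against control was not called, at -0.73 ± 0.28 (limma adjusted p = 0.146).

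The second Ccl2 probe set, X17053cds_s_at, is built on the same sequence record. It had 62.2 and 127 in the walked pools, 46.7, 28.3 and 38.5 in the unloaded pools and 45.4, 49.5 and 39.8 in the control pools. Walked pools were again the highest, with pool 2 above pool 1. The log2 fold changes of 1.27 ± 0.34 (walked against unloaded; limma adjusted p = 0.0693) and 0.99 ± 0.34 (walked against control; adjusted p = 0.0931) missed the threshold. Across the 8 arrays the log2 signals of the 2 probe sets had r = 0.90, as a description of probe sets that share a transcript and arrays. In whole-muscle RNA, more cells that express a gene and more RNA per cell cannot be told apart.

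Leukocyte markers were set beside Ccl2, since macrophages are a known source of it. Of 24 fixed markers 17 were on the array and 9 passed the filter. The summed signal of all 17 was 1194 to 1340 in walked, 1493 to 1702 in unloaded and 1478 to 1518 in control arrays. The lower walked sum lay in 2 genes of MHC class II antigen presentation, picked out after their values were seen. RT1-Da had 296 and 293 in walked, 567, 501 and 532 in unloaded and 398, 493 and 434 in control arrays, and its brightest probe set was called lower in walked arrays against both other groups. Cd74 had 235 and 251 in walked, 265 to 341 in unloaded and 355 to 423 in control arrays, and its brightest probe set was called lower in walked against control. The other 15 markers summed to 651 to 809 in walked, 687 to 870.1 in unloaded and 630.3 to 750.1 in control arrays, which overlapped. Cd14, the monocyte co-receptor for endotoxin, had 123 and 118 in walked, 83.7, 105 and 91.3 in unloaded and 125, 98.8 and 92.6 in control arrays, with no call. The defining marker Ptprc, the pan-leukocyte phosphatase, had 17.8 and 28.2 in walked, 32.7, 25.2 and 14.3 in unloaded and 61.2, 19.3 and 56.3 in control arrays. Summed endothelial markers (4 on the array) were 286 to 321 in walked, 290.1 to 312 in unloaded and 301 to 390.1 in control arrays. The part of these cells in the Ccl2 signal was not tested.

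Il6, the cytokine that contracting muscle is known to release, was near the limit of the array. Its probe set M26744_at had signals of 16.3 and 12.3 in the walked pools, against 0.8, 1.5 and 2.2 in the unloaded pools and 2.6, 2.0 and 2.6 in the control pools. Both walked pools were above the floor of 4.10, and all 6 other arrays were below it, where values have no order. The walked mean, taken on log2 signals, was 3.46-fold above the floor, which is a lower bound for the fold against the other groups. Of 3496 probe sets outside the test, 238 lay at the floor on all 6 control and unloaded arrays. Of these, 8 had both walked arrays above it, this one among them. With no filter, limma gave an adjusted p of 0.00189 for walked against unloaded and 0.00326 for walked against control, where 1.44% and 1.42% of 8740 probe sets were called higher. In unloaded against control, where both Il6 groups lay at the floor, 1.35% of all were. These p-values rest on groups whose floored arrays have no spread. The other Il6 probe set, M26745cds_s_at, had 4.2 and 5.6 in walked, 2.7, 2.3 and 4.7 in unloaded and 4.2, 4.7 and 2.8 in control pools. Its groups overlapped, so only 1 of the 2 Il6 probe sets set the walked arrays apart.

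Il1b, which encodes the inflammatory ligand interleukin 1 beta, showed no called change. Its 1 tested probe set, M98820_at, had 30.3 and 35.9 in the walked pools, 16.5, 25.4 and 35.0 in the unloaded pools and 27.8, 34.6 and 21.8 in the control pools. All 3 groups overlapped. The 95% intervals of the log2 fold change ran from -0.55 to 1.41 in walked against unloaded and from -1.05 to 0.70 in unloaded against control. The dim probe set M98820_g_at had 5.0 and 11.4 in walked, 2.4, 3.8 and 5.3 in unloaded and 15.1, 21.5 and 3.9 in control pools. E01884cds_s_at lay between 2.9 and 11.2 on all arrays. These 2 dim probe sets had their highest signals in control arrays, but in each of them 1 control array was below the floor.

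Il15, a muscle-expressed cytokine that acts on lymphocytes and on muscle, was higher after unloading on 1 of its 3 probe sets. U69272_at had signals of 71.3 and 56.7 in the walked pools and 135, 146 and 224 in the unloaded pools, against 89.2, 61.9 and 29.6 in the control pools. All 3 unloaded pools lay above every control and walked pool, and walked pools lay within the control range. The means were 64.0 ± 10.3 (SD, n = 2) in walked, 168 ± 48.5 (n = 3) in unloaded and 60.2 ± 29.8 (n = 3) in control soleus. Unloaded against control gave 1.59 ± 0.35 (SE; limma adjusted p = 0.0198), a 3.00-fold difference. Leaving out unloaded pool 2 (adjusted p = 0.0577) or unloaded pool 3 (0.0701) ended the call, as did fitting without the filter (0.137) or without a trend (0.0682). The estimate was 1.14 without control pool 3, its lowest control array. Walked against unloaded gave -1.37 ± 0.40 and was not called (limma adjusted p = 0.0904). It was called without control pool 3 (0.0115) and in a fit of those 2 groups alone (0.00895). Walked against control gave 0.22 ± 0.40, and -0.22 without control pool 3, not called in either fit.

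The other Il15 probe sets gave smaller differences between unloaded pools and either other group. AF015719_s_at had 40 and 42 in walked, 43.5, 104 and 36.5 in unloaded and 34.3, 38.6 and 16.5 in control pools, with 0.97 ± 0.44 in unloaded against control (limma adjusted p = 0.227). Its walked pools lay above its control pools, at 0.55 ± 0.49 (limma adjusted p = 0.532). U69272_g_at had 32.2 and 26.6 in walked, 18.1, 51.9 and 30.2 in unloaded and 21.4, 36.3 and 13.8 in control pools, with 0.47 ± 0.49 in unloaded against control (limma adjusted p = 0.652) and 0.41 ± 0.55 in walked against control (adjusted p = 0.707). In both of these, unloaded pool 2 was the highest array, and the unloaded and control arrays overlapped. The correlation between U69272_at and its partner from the same record, U69272_g_at, was 0.46 over the 8 arrays, lower than that of the Ccl2 pair.

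Il6r, the ligand-binding chain of the interleukin 6 receptor, had the most regular change. Its 1 probe set, M58587_at, had signals of 125 and 156 in the walked pools and 188, 180.4 and 151 in the unloaded pools, against 76.6, 66.6 and 73.6 in the control pools. Every unloaded and walked pool lay above every control pool, and walked and unloaded pools overlapped. The means were 140.4 ± 21.9 (SD, n = 2) in walked, 173 ± 19.8 (n = 3) in unloaded and 72.3 ± 5.13 (n = 3) in control soleus. Unloaded against control gave a log2 fold change of 1.26 ± 0.17 (SE; limma adjusted p = 0.000982), a 2.39-fold difference, and stayed called in all 8 refits with 1 array left out and all 9 other settings. Walked against control gave 0.95 ± 0.19 (limma adjusted p = 0.0127), a call lost without walked pool 2 (adjusted p = 0.121). Walked against unloaded was not called, at -0.30 with a 95% interval from -0.72 to 0.11.

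The partner chain Il6st, chosen here for that role and not for its values, had 40.4 and 31.2 in walked, 32.5, 30 and 61.5 in unloaded and 47.9, 31 and 54.3 in control pools. All 3 groups overlapped, with -0.14 ± 0.35 in unloaded against control (limma adjusted p = 0.863) and -0.14 ± 0.39 in walked against unloaded (adjusted p = 0.909). Il2rb, a signalling chain that the interleukin 15 receptor shares with that of interleukin 2, had 33.5 and 16.9 in walked, 53.0, 14.3 and 32.9 in unloaded and 63.8, 56.2 and 56.2 in control pools. Every walked and unloaded array was below every control array, but the spread among unloaded pools was wide. Of all tested probe sets, 26.4% did not overlap between unloaded and control pools and 43.0% between walked and control pools. Il2rb had the lowest log2 fold change of 13 tested receptor genes in both of these comparisons. Neither unloaded against control (-1.004 ± 0.46, limma adjusted p = 0.234) nor walked against control (-1.30 ± 0.51, limma adjusted p = 0.140) was called.

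Stat3, the transcription factor downstream of interleukin 6, was not called in any of the 3 comparisons. Its tested probe set X91810_at had 56.5 and 67.2 in the walked pools, 13.6, 40.6 and 28.3 in the unloaded pools and 55.1, 50.8 and 40.5 in the control pools. Walked pools lay above all others, and the unloaded pools met the control range at 1 array. Walked against unloaded gave 1.30 ± 0.42 (SE; limma adjusted p = 0.129), unloaded against control -0.95 ± 0.38 (adjusted p = 0.170) and walked against control 0.35 ± 0.42 (adjusted p = 0.670). The dim probe set rc_AI639141_at had 26.4 and 18.5 in walked, 26, 19.9 and 14.3 in unloaded and 24.7, 22.8 and 22 in control pools, with all groups overlapping. The 2 Stat3 probe sets had r = -0.02 over the 8 arrays.

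Nfkb1, whose p105 product is cut to the NF-kB subunit p50, was lower after unloading. L26267_at had signals of 119 and 98.1 in the walked pools and 83.1, 99 and 84.0 in the unloaded pools, against 153, 128 and 147 in the control pools. All unloaded and walked pools lay below all control pools, and the walked pools overlapped the unloaded ones. The means were 109 ± 15.1 (SD, n = 2) in walked, 88.7 ± 8.93 (n = 3) in unloaded and 143 ± 12.6 (n = 3) in control soleus. The log2 fold change of unloaded against control was -0.68 ± 0.17 (SE; limma adjusted p = 0.0299). Leaving out control pool 1 or 3 or unloaded pool 1 or 3 ended the call, with adjusted p between 0.0714 and 0.0958, while the estimate stayed between -0.77 and -0.63 over all 8 refits. The call was also lost without a trend (adjusted p = 0.0529). Walked against unloaded gave 0.29 ± 0.19 (limma adjusted p = 0.466) and walked against control -0.39 ± 0.19 (adjusted p = 0.226).

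Nfkbia, which encodes the inhibitor IkB-alpha and is a textbook target of NF-kB, was not called on either probe set in any of the 3 comparisons. X63594cds_at had 190 and 137 in the walked pools, 113, 138 and 179 in the unloaded pools and 137, 104 and 153 in the control pools. X63594cds_g_at, from the same record, had 116 and 87.0 in walked, 76.4, 101 and 113 in unloaded and 93.7, 83.7 and 123 in control pools. The 3 groups overlapped on both, and the probe sets had r = 0.85 over the arrays. For X63594cds_at the 95% interval of the log2 fold change was -0.37 to 0.60 in unloaded against control and -0.34 to 0.74 in walked against unloaded. For X63594cds_g_at the intervals were -0.53 to 0.43 and -0.46 to 0.61, so a 2-fold change in either direction lay outside all 4 of these intervals.

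**Figure D3:**
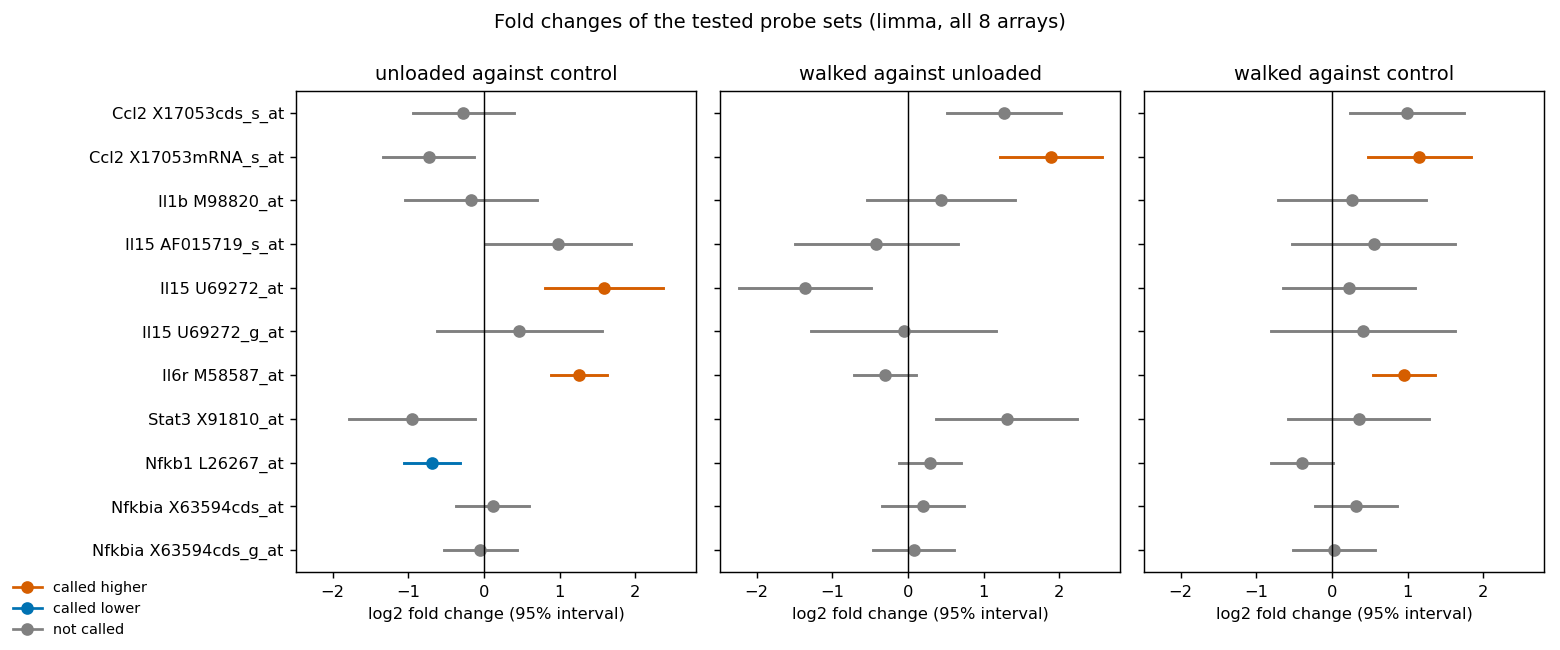
Log2 fold change with its 95% interval from limma for the 11 tested probe sets in each comparison; orange is called higher, blue is called lower and grey is not called. In unloaded against control, Il6r and 1 of 3 Il15 probe sets are called higher and Nfkb1 lower. In walked against unloaded, 1 of 2 Ccl2 probe sets is called higher.

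**Figure D4:**
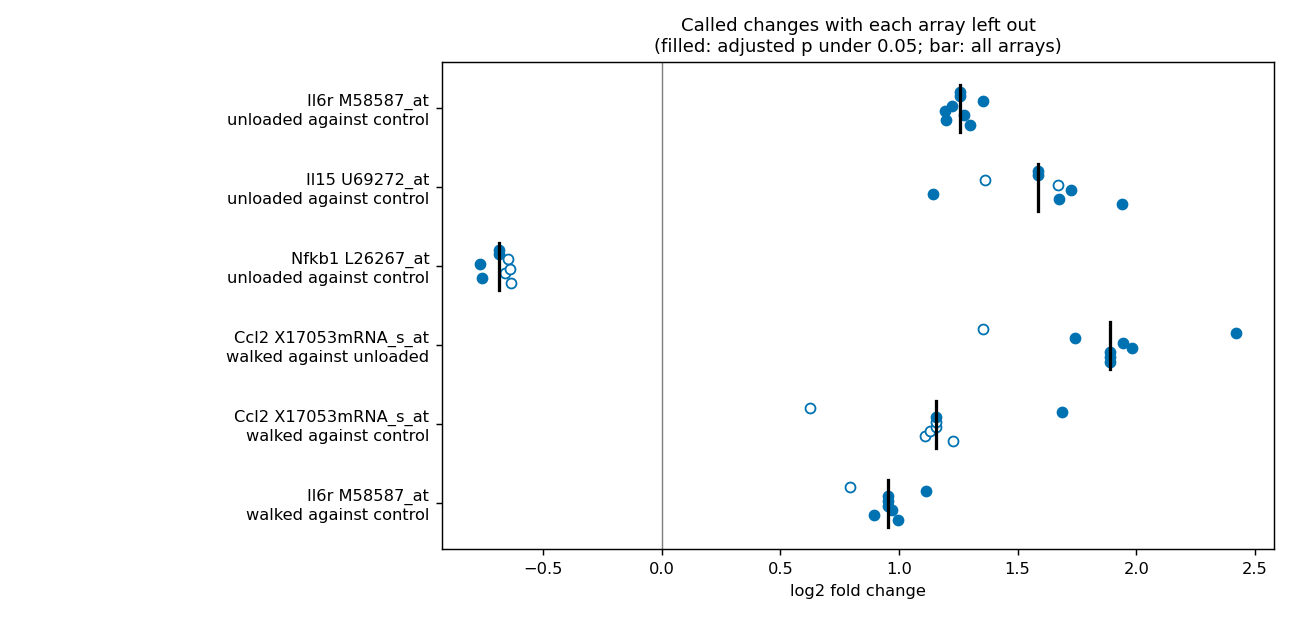
Log2 fold change of the 6 called results with each of the 8 arrays left out in turn; filled points kept an adjusted p under 0.05 and the bar is the value with all arrays. Il6r in unloaded against control kept its call in all 8 refits, and Ccl2 in walked against control in 2.

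The order of the 3 groups differed from gene to gene. Mean signal was highest in walked, then control, then unloaded pools for both Ccl2 probe sets and the tested Stat3 probe set. It was highest in unloaded, then walked, then control pools for Il6r and for all 3 Il15 probe sets. For Nfkb1 the order was control, walked, unloaded. Of the neighbours in these orders, only walked against control in the brighter Ccl2 probe set and in Il6r passed the test.

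Other genes of the pathway were taken from lists by role, 127 genes, of which 81 were on the array and 47 passed the filter on 1 or more probe sets. The brightest tested probe set stood for each gene. In unloaded against control 1 of the 47 was called (lower), and in walked against unloaded 1 (higher), each 2.13%, against 7.30% and 4.20% of all tested probe sets. In walked against control limma called 0 of 47, against 9.08% of all. At an unadjusted p under 0.05 there were 4, 3 and 8 of 47 in these comparisons, beside 21.5%, 17.4% and 24.7% of all tested probe sets. The same gene gave both calls: Junb, an AP-1 subunit and known STAT3 target. It had 184 and 222 in walked, 64, 85.2 and 95 in unloaded and 113, 152 and 146 in control pools. The 3 groups did not overlap. Walked against unloaded gave 1.33 ± 0.22 (SE; limma adjusted p = 0.00449) and unloaded against control -0.76 ± 0.20 (adjusted p = 0.0415). The first call was lost without walked pool 2 (adjusted p = 0.0767). The second was kept without control pool 1 or unloaded pool 3 and lost in the other 6 refits with 1 array left out (adjusted p between 0.0608 and 0.141). It was also lost under quantile normalization (0.0584), with no filter (0.121), without a trend (0.0857) and in the fit of those 2 groups (0.0635). Junb's other probe set had 1.36 in walked against unloaded and -0.45 in unloaded against control.

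Among 10 tested ligand genes outside the 8 members limma called 0 in each comparison, with 2, 0 and 1 at an unadjusted p under 0.05, none of them a larger share than that of all tested probe sets. The ligand list ran from -0.91 (Csf1) to 0.63 (Cntf) in unloaded against control and from -0.53 (Cntf) to 0.38 (Csf1) in walked against unloaded. Mif, the brightest tested ligand, gave -0.45 in unloaded against control (limma adjusted p = 0.0541) and in walked against control (adjusted p = 0.0687). Its other probe set gave -0.34 and -0.76. The ligands Csf3 and Cx3cl1, a granulocyte growth factor and a chemokine, stayed between 73.1 and 102 and between 50.3 and 109.8 on their brightest probe sets. Other Cx3cl1 sets gave -1.2 and -0.04 in unloaded against control, and -1 and 0.21 in walked against control. Among the ligands below the filter, Tnf had 5.7 and 3.9 in walked, 6.1, 9.0 and 6.4 in unloaded and 9.6, 8.2 and 5.4 in control pools. Cxcl2, a neutrophil chemokine also below the filter, stayed between 2.5 and 6.9 on all arrays. Csf3, Cx3cl1, Tnf and Cxcl2 were picked after their values were seen, as well-known inflammatory ligands. Mif and Tnfsf13 were also named after their values were seen.

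Of 13 tested receptor genes limma also called 0 in each comparison (1, 0 and 1 at an unadjusted p under 0.05, each a smaller share than that of all tested probe sets), with a median of 0.02 after unloading against control, -0.10 between walked and unloaded pools and -0.17 between walked and control pools. Of 11 tested genes of the JAK-STAT route limma called 0 in each comparison, with 0, 2 and 2 at an unadjusted p under 0.05, which is 18.2% for 2 of 11 beside the 17.4% and 24.7% of all tested. The largest value there was of Socs3, the feedback inhibitor of interleukin 6 signalling and a STAT3 target, named after its values were seen. Socs3 had 50.1 and 72.2 in walked, 26.3, 15.4 and 11 in unloaded and 15.3, 25.2 and 19.1 in control pools. Both walked pools lay above all others, and the gene passed the filter only through them. The log2 fold changes were 1.87 ± 0.51 in walked against unloaded (limma adjusted p = 0.0707) and 1.63 ± 0.51 in walked against control (adjusted p = 0.0703). Of 12 tested NF-kB or STAT3 target genes, Junb was the 1 called. On their brightest probe sets, Icam1, Ptgs2, Nos2, Irf1, Sod2 and Cebpb were among the 11 that were not. In walked against control, other tested probe sets gave 1.15 for Icam1, 0.91 for Cebpb, -0.86 for Irf1 and -0.09 for Nos2. The brightest sets gave -0.12, 0.43, -0.66 and -0.49 in the same order. Cebpd had -0.13 on its brightest set and 0.58 and 1.76 on its others. In unloaded against control the other Irf1 set gave -1.21, beside -0.19. In walked against unloaded, other sets gave 1.08 for Timp1, 0.73 for Icam1, 0.55 for Cebpb, 0.35 for Irf1 and 0.14 for Nos2. The brightest sets gave 0.20, 0.09, 0.34, -0.47 and 0.11 in that order. Other sets gave 0.61 and 0.79 for Cebpd, 0.34 and 0.92 for Bcl2l1, and 0.16, 0.09 and -0.24 for A2m. Calls on these other sets are not given. The NF-kB kinase and adaptor list had 1 tested gene, Traf2, with -0.48 in unloaded against control and -0.92 in walked against control (limma adjusted p = 0.109).

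**Figure D5:**
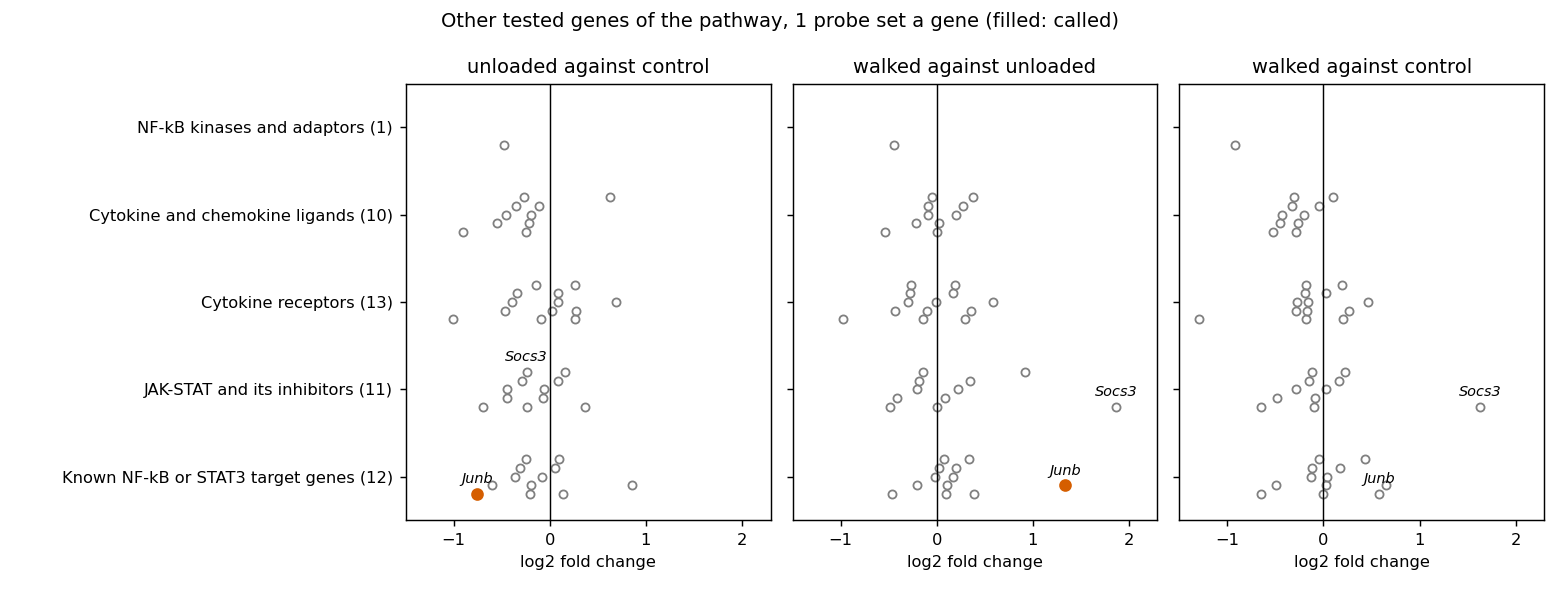
Log2 fold change of the 47 other tested pathway genes by role in each comparison, 1 probe set a gene; filled points were called by limma and the number of genes in each role is in brackets. Junb is the 1 called gene, and Socs3 lies farthest to the right in both comparisons of walked arrays without being called.

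The probe sets whose log2 signal followed each gene most closely over the 8 arrays were looked up among all tested, single-named probe sets. They are given as a description, since the arrays and their 3 groups are shared. Ccl2 (X17053mRNA_s_at) was most like Ywhaz, a 14-3-3 adaptor protein (r = 0.97), and the orphan nuclear receptor Nr4a1 (r = 0.97). Stat3 (X91810_at) was most like Trdmt1 (r = 0.97) and the AP-1 subunit Fos (r = 0.97). Il15 (U69272_at) was most like 1 probe set of the tropomyosin gene Tpm1 (r = 0.99) and Sult1a1 (r = 0.98). Il6r was most like the phosphatase gene Ptp4a2 (r = 0.97) and the ribosomal protein gene Rpl31 (r = 0.97). Nfkb1 was most like the endoplasmic reticulum protein gene Erp29 (r = 0.97) and the superoxide dismutase gene Sod1 (r = 0.97). For Il1b the closest was the proteasome subunit gene Psma5 (r = 0.95), followed by the sodium channel gene Scn7a (r = 0.89). For Nfkbia they were the GTPase gene Rab7a (r = 0.93) and the STAT family gene Stat5a (r = 0.92).

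The labelled tissue was checked with 10 muscle markers, of which 7 were on the array and passed the filter. Their summed signal was 34031 and 39504 in walked, 26238 to 37328 in unloaded and 23309 to 25842 in control arrays. In walked against control limma called 5 of these 7 higher, where 4.46% of all tested probe sets were. In each of the other comparisons 0 of the 7 were called. Their part in the higher Ccl2 and Il6r signals of walked arrays was not tested. Summed fibroblast markers (5) were 5736 to 5777 in walked, 5821 to 9013 in unloaded and 4587 to 6268 in control arrays, with 2 (Dcn and Lum) called higher in unloaded against control and 1 (Dcn) in walked against control. Summed adipocyte markers (3) were 221 to 351 in walked, 378 to 486 in unloaded and 245 to 431 in control arrays, with 1 called higher in unloaded against control. Among the leukocyte markers Cd48 was called higher in unloaded against control, with 98.3 and 107 in walked, 156, 110.0 and 172 in unloaded and 37.7, 62.9 and 67.5 in control arrays. The part of these cell types in the higher Il6r signal of unloaded and walked arrays and in the higher Il15 signal of unloaded arrays was not tested. Mast cell markers (6; 343 to 387, 344 to 399.6 and 347 to 433), red cell markers (2; 2712 to 3758, 3480.3 to 5567 and 3947 to 4808) and Schwann cell markers (4; 419.8 to 427, 389 to 438 and 443 to 487) gave these summed signals in walked, unloaded and control arrays. Summed smooth muscle markers (4) were 1447 to 1732 in walked, 1071 to 1384 in unloaded and 1678 to 2358 in control arrays. Of these 4, 1 was called lower in unloaded against control, the comparison in which Nfkb1 was lower. The part of smooth muscle in the lower Nfkb1 signal was not tested.

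The 8 arrays had medians between 37.1 and 42.4. Correlations over tested probe sets were 0.949 to 0.963 within groups and 0.913 to 0.945 between them. Control pool 3 had the lowest mean correlation with arrays of other groups, at 0.918, and it also had the lowest Il15 signal on all 3 Il15 probe sets. For U69272_at the values without it are given above. Without it, unloaded against control was 0.60 for AF015719_s_at and 0.13 for U69272_g_at, not called.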

How the data were processed

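The authors deposited 1 signal intensity per probe set and array on a linear scale, and the submitters' processing notes name MAS5. Neither a version nor a scaling target was given in the sources read. MAS5 subtracts a background or mismatch estimate, so low signals are noisy. Signals printed are the deposited intensities.

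For the tests, arrays were brought to a common 2% trimmed mean (148.6). A floor of 4.10, the 10th percentile over all arrays, replaced lower values before log2 was taken. Probe sets under the 40th percentile of mean signal (25.8) were left out, which kept 5244 of 8740. All 8 arrays entered 1 fit with 3 groups in limma 3.58.1 under R 4.3.3 (lmFit, contrasts.fit, eBayes with a trend, two-sided; 5 residual degrees of freedom, prior 6.00), and p-values were adjusted over the 5244 by Benjamini-Hochberg with a threshold of 0.05. The number of arrays limits the precision: the smallest exact permutation p for 1 gene is 0.1 in a comparison of 3 against 2 arrays, so calls rest on the spread pooled across probe sets.

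Gene names came from the platform annotation, where 7006 probe sets had 1 symbol, 308 several and 1426 none. Of the 7006, 6985 were in the gene table of assembly GRCr8, and 0 symbols changed. Promoter windows are RefSeq's on GRCr8, and the signals themselves have no genome build.

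The members and lists were chosen with earlier results of these data known. The genes named are all probe sets of the 8 members, up to 4 called genes of each role list and comparison, and the 2 probe sets of other genes most like each member. All other genes named, markers included, were named outside that rule. The 3 comparisons share arrays pairwise, so none is independent of the others. Alternatives were quantile normalization, no rescaling, a higher floor (20th percentile) and none above 1, no filter and a stricter one (60th percentile), eBayes without a trend, fits of the 2 groups compared, the pool number as a block, and each array left out in turn.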

Additional observations from a re-analysis of the deposited data

How the results depend on the processing

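Over all tested probe sets, limma called 383 in unloaded against control pools, 220 between walked and unloaded pools and 476 between walked and control pools. Without a filter the counts were 228 in unloaded against control and 216 in walked against control, and without a trend they were 243 and 211. With each array left out they ranged from 230 to 404, from 120 to 263 and from 105 to 503. The counts moved by over 1.5 times without unloaded pool 1 (246) or 2 (230) in unloaded against control, and without walked pool 1 (123) or 2 (120) in walked against unloaded. In walked against control they did so without control pool 2 (257) or 3 (297) and walked pool 1 (146) or 2 (105). When 1 walked array is left out, the other is assumed to vary like the other groups.

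Of the 11 tested probe sets of the 8 genes, 3, 1 and 2 were called in these comparisons. In unloaded against control the count was 1 without a trend, and 1 to 3 with an array left out (1 without unloaded pool 3). In walked against unloaded it was 2 with no filter, where Il6 enters, and 2 in the fit of those 2 groups, where Il15 on U69272_at fell; it was 0 to 2 with an array left out (0 without walked pool 2, and 2 without walked pool 1 or control pool 3). In walked against control it was 2 with no filter, where Il6 enters and Ccl2 leaves, 1 without a trend and 1 in the fit of those 2 groups, and 0 to 2 with an array left out (0 without walked pool 2, 1 without each control pool or unloaded pool 1 or 2). Over 12 named probe sets and the 3 comparisons there were 597 refits: 546 kept direction and side of the threshold, 33 lost a call, 3 gained one, 15 changed sign without being called before or after, and 0 reversed a call.

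With the pool number as a replicate block, the counts over all tested probe sets were 394, 177 and 251, and for the 8 genes 2, 1 and 1. The block ended the calls of Nfkb1 in unloaded against control (adjusted p = 0.0548) and of Ccl2 in walked against control (adjusted p = 0.0971). Deviations from group means of same-numbered arrays correlated at -0.07 to 0.05 over 7 pairs. In 3 of 10 combinations of an array with another group of 3 arrays, the closest array had the same number. Whether same-numbered pools shared a batch was not tested.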

Other observations

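Birc2, an inhibitor of apoptosis of the family that NF-kB is known to induce, was too dim to be tested but stood apart in the walked arrays. Its 1 probe set, AF081503_at, had 21.4 and 29.7 in the walked pools, against 4.5, 4.5 and 4.8 in the unloaded pools and 3.3, 5.3 and 1.3 in the control pools. Lifr, the receptor chain for leukemia inhibitory factor, ran the other way, with 2.8 and 4.3 in the walked pools, 21.7, 35.0 and 11.4 in the unloaded pools and 16.9, 23.1 and 28.8 in the control pools. Jak3, a kinase of the interleukin 2 and interleukin 15 receptors, had 38.2 and 24.5 in the walked pools, 7.2, 6.9 and 14.2 in the unloaded pools and 7.9, 20 and 9.2 in the control pools. In all 3 genes the walked arrays did not overlap the other arrays. The same held for Cxcl10 (lower) and for the 1 probe set examined of 2 for Il12b (higher). Walked pool 1 of Lifr was below the floor of 4.10. Among all tested probe sets, walked pools did not overlap unloaded pools in 35.3% and control pools in 43.0%. The share that overlapped neither group was not computed, and no share was computed among dim probe sets. These cases therefore have no like background to be set against. Birc2, Lifr and Jak3 were picked from 34 dim pathway genes after their values were seen, so no test is given.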
